A study of Mus musculus with 2 samples.

Results

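Semaphorins, Slits, netrins and ephrins are guidance cues that steer growing axons, and they also act on epithelium, mesenchyme and vessels of developing organs. Their level was measured in the mouse lung at embryonic day 14.5, while its airways branch. The genes were taken by symbol: protein-coding genes named as class 3 to 7 semaphorins, plexins, Slit1 to Slit3, Robo1 to Robo4, Ntn1 to Ntn5, Unc5a to Unc5d, Eph receptors of the A and B kind, and ephrins of the A and B kind. The rule used no measured value, and it found 65 genes among 21474 protein-coding and 43346 mouse genes in the tables. The symbol Ntn3 also fits the rule, but its identifier in the newer annotation was not matched, and it was not analysed here.

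The study holds 1 group of 2 libraries, replicate 1 and replicate 2, each from total RNA of lung of the strain B6NCrl at 14.5 days, collected on 15 July for replicate 1 and on 17 July for replicate 2. Each library started from 10.0 ng of RNA above a size minimum of 200 nt, with spike-in RNA added. The labels call each sample both a pool of males and females and the lung of 1 pup, so the number of animals is uncertain, and nothing shows how far the spread between the libraries is technical. There is no second condition: the values answer which guidance genes were expressed, at what level, as which transcripts, and how far the libraries differed.

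Summed expected counts (estimated reads per gene) were 33601136 in replicate 1 and 34535168 in replicate 2, and the 65 genes took 92924 and 102428 of them. The lung labels were checked on marker genes, whose summed TPM (a transcript level corrected for length and scaled to the same sum in every library) in replicate 1 and replicate 2 was 2725 and 2777 for 6 epithelial markers, 2464 and 2517 for 6 mesenchymal, and 340 and 344 for 6 endothelial markers. It was 899 and 917 for 4 smooth muscle markers, 47.0 and 41.0 for 4 mesothelial and 49.4 and 52.8 for 3 erythroid markers. The 8 heart muscle markers summed to 421 TPM in replicate 1 and 29.6 in replicate 2, with 7 of the 8 called higher in replicate 1. The 4 Y-linked markers stood between 17.6 and 47.4 TPM in replicate 1 and between 0.00 and 0.02 TPM in replicate 2, and Xist at 0.07 and 70.1 TPM. These values go against the label of pooled sexes in both libraries, so sex, collection day and library cannot be told apart here.

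Semaphorins are ligands that share a sema domain and mostly bind plexins, and the secreted class 3 members mostly need a neuropilin as co-receptor. Slits are secreted ligands of Robo receptors. Netrins are laminin-related ligands of Dcc, neogenin and Unc5 receptors. Ephrins are held in the membrane, ephrin-A by a lipid anchor and ephrin-B by a transmembrane helix, and Eph receptors are the tyrosine kinases that bind them on the neighbouring cell, with signals passing into either cell.

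Most of these genes were detected. A TPM of 1 or more in both libraries was reached by 53 of the 65 (81.5%), beside 58.8% of all protein-coding genes, and 10 TPM or more in both by 28 (43.1%), beside 39.7%. The median of the mean TPM was 8.77 over the members and 4.10 over all protein-coding genes. Levels ran from 0.015 TPM (Epha10) to 115 TPM (Plxnb2), and all members together came to 949 TPM in replicate 1 and 1040 in replicate 2. With the 53 detected members ordered by mean TPM, the ranges of the libraries overlapped for 38 of the 52 neighbouring pairs, so the order is fixed only coarsely. The deposited quantification shared few of their reads with other genes: the posterior standard deviation that the deposited tables give for the count was 0 in both libraries for 56 members and at most 1.92 reads. In whole tissue, fewer cells of a type and less RNA per cell cannot be told apart, which holds for every level below.

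**Figure D1:**
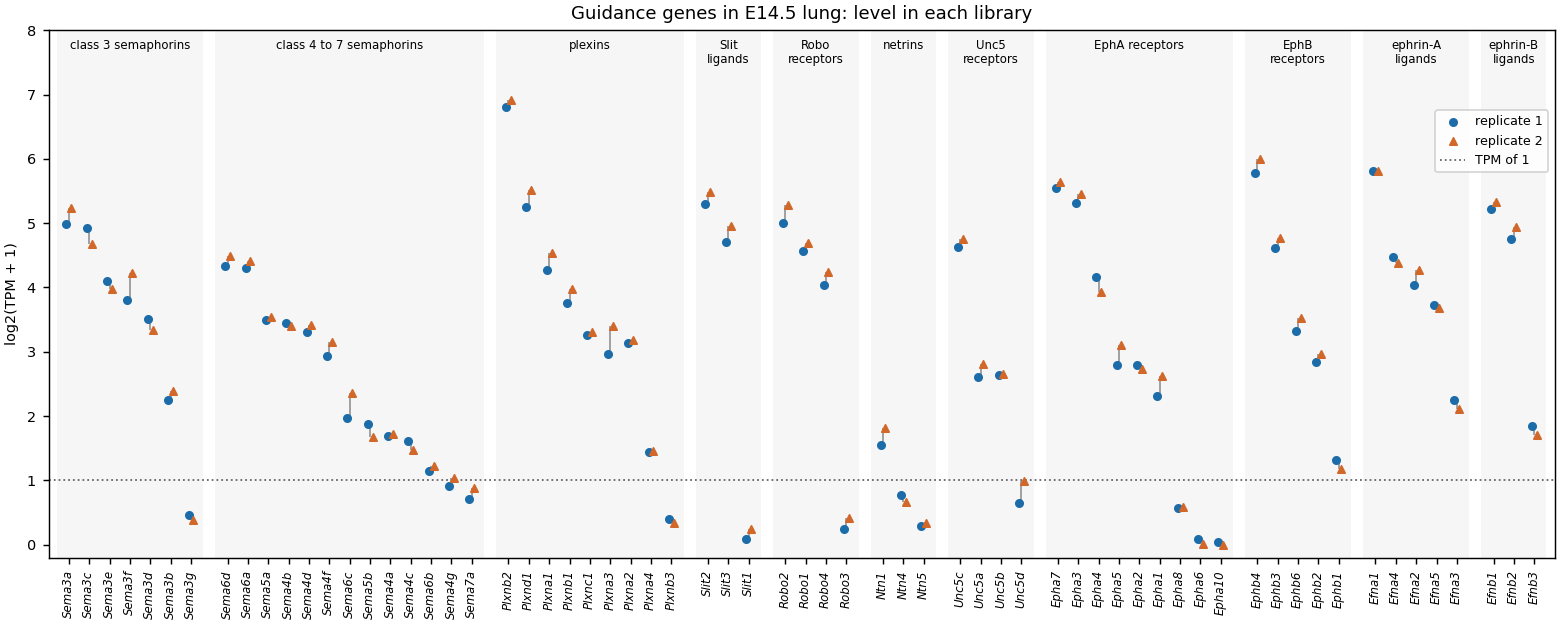
Level of each of the 65 guidance genes in log2(TPM + 1), grouped by role and ordered by mean TPM within the role; circles are replicate 1, triangles replicate 2, and the dotted line marks a TPM of 1. Plxnb2 stands highest in both libraries, each role except the netrins has a member with a mean above 20 TPM, and 11 members lie below the line in both libraries.

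Of the 7 class 3 semaphorins, 6 were detected. Sema3a, a repellent that acts through neuropilin-1 and A-type plexins, had 30.8 TPM in replicate 1 and 36.5 in replicate 2. Sema3c, another secreted member, had 29.3 and 24.5 TPM in the same order of libraries. Sema3a was the higher of the pair in each library, and their ranges did not overlap. Sema3e, which binds plexin-D1 without a neuropilin, had 16.2 TPM in replicate 1 and 14.8 in replicate 2, and Sema3f, a ligand that uses neuropilin-2, had 13.0 and 17.8 TPM, so the ranges of these 2 genes overlapped. Sema3d followed at 10.4 and 9.14 TPM and Sema3b at 3.77 and 4.22 TPM. Sema3g was under 1 TPM in both libraries (0.38 and 0.31 TPM). Sema3d, Sema3a and Sema3e lie in this order on the plus strand of chromosome 5 between 12383385 and 14256689 (GRCm38), each within 1 Mb of the next, and Sema3b and Sema3f lie 72271 nt apart on the minus strand of chromosome 9.

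The 13 members of classes 4 to 7, which are membrane-bound, were lower as a group: their median of mean TPM was 3.53, against 15.4 for class 3, and 11 of them were detected. Sema6d, a transmembrane ligand of plexin-A1, had 19.2 TPM in replicate 1 and 21.6 in replicate 2. Sema6a, a transmembrane ligand of A-type plexins, had 18.8 and 20.4 TPM, and the ranges of the 2 genes overlapped. Below them Sema5a, whose extracellular part carries thrombospondin repeats, had 10.2 and 10.7 TPM, and Sema4b had 9.96 and 9.52 TPM. Sema4d, the ligand of plexin-B1, overlapped with Sema4b at 8.95 and 9.68 TPM. The other members above the minimum in both libraries, Sema4f, Sema6c, Sema5b, Sema4a, Sema4c and Sema6b, ran from 1.21 to 7.90 TPM. Sema4g reached 1 TPM in 1 library only (0.89 TPM in replicate 1 and 1.05 in replicate 2). Sema7a, the lipid-anchored ligand of plexin-C1 and of integrin beta-1, stayed under 1 TPM in both (0.63 and 0.84).

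Plexins are the large receptors of semaphorins, with an intracellular domain that acts on small GTPases. Plxnb2 (minus strand of chromosome 15, positions 89155549 to 89180788) is a receptor of class 4 semaphorins. It had 110.4 TPM in replicate 1 and 120.0 in replicate 2, more than any other guidance gene in either library. It made up 54.2% and 52.1% of the summed plexin TPM. Plxnd1, the receptor of Sema3e and known from endothelium, had 37.1 TPM in replicate 1 and 44.6 in replicate 2. Plxna1 followed at 18.4 and 22.2 TPM and Plxnb1 at 12.6 and 14.7 TPM. Plxnc1, Plxna3 and Plxna2 lay close together, between 6.85 and 9.61 TPM. Plxna4 stood at 1.71 and 1.74 TPM, and Plxnb3 was under 1 TPM in both libraries (0.32 and 0.26).

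Among Slits, Slit2, on chromosome 5 at positions 47983138 to 48307733 of the plus strand, was highest. It had 38.5 TPM in replicate 1 and 44.0 in replicate 2, and Slit3 had 25.1 and 30.03 TPM. Slit1, the member known mainly from the nervous system, had 0.06 and 0.19 TPM, from 7 and 22 expected counts. The Slit signal of these lungs thus lay on Slit2 and Slit3, without overlap between the 3 genes. Of their receptors, Robo2 had 31.1 TPM in replicate 1 and 37.9 in replicate 2, and Robo1 had 22.8 and 24.8 TPM. Robo1 and Robo2 lie on opposite strands of chromosome 16, with 845744 nt between them. Robo4, a receptor known from endothelium, had 15.4 and 17.99 TPM. Robo3, known from commissural axons, had 0.19 and 0.34 TPM, although the genes Robo4 and Robo3 point toward each other on chromosome 9 with 554 nt between their ends.

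Netrins were the lowest role. Ntn1, the founding secreted netrin of vertebrates, had 1.92 TPM in replicate 1 and 2.53 in replicate 2, the only netrin of the 3 analysed that was detected. Ntn4, a basement membrane netrin, had 0.70 and 0.59 TPM, and Ntn5 had 0.22 and 0.27 TPM. The receptors were not low in the same way. Unc5c, a receptor of the repulsive netrin response, had 23.8 TPM in replicate 1 and 26.0 in replicate 2. Unc5a had 5.07 and 5.98 TPM and Unc5b, known from arterial endothelium, had 5.20 and 5.28 TPM, with overlapping ranges. Unc5d was listed at 0.57 and 0.98 TPM.

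All 5 ephrin-A ligands were detected. Efna1 led them with 55.3 TPM in replicate 1 and 55.1 in replicate 2, and it took 51.3% and 50.8% of the summed ephrin-A TPM. Efna4 had 21.2 and 19.8 TPM and Efna2 15.4 and 18.3 TPM. The ranges of these 3 genes did not overlap. Efna5 had 12.2 and 11.9 TPM and Efna3 3.76 and 3.32 TPM. Efna1, Efna3 and Efna4 are neighbours on the minus strand of chromosome 3, with gaps of 32757 and 10425 nt, and the middle gene was the lowest of the cluster.

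Of the 9 EphA receptors 6 were detected. Epha7 lies on the plus strand of chromosome 4 at positions 28813131 to 28967499. It had 45.9 TPM in replicate 1 and 48.9 in replicate 2, and Epha3 had 38.9 and 42.7 TPM. Epha4, which binds ephrins of both kinds, had 16.9 and 14.3 TPM. These 3 receptors carried most of the EphA sum, which was 118 TPM in replicate 1 and 125 in replicate 2. Epha5 had 5.94 and 7.57 TPM, Epha2, known from epithelium, 5.95 and 5.66 TPM, and Epha1 3.97 and 5.17 TPM. The reads of Epha1 may be mixed with those of Zyx, which overlaps its exons by up to 156 nt on the opposite strand and had 7957 and 8063 expected counts where Epha1 had 281 and 367. The posterior standard deviation of the Epha1 count was 0.98 and 1.92 reads, and mixing was not tested. Epha8 (0.49 and 0.50 TPM) and Epha6 (0.06 and 0.01 TPM) were low. Epha10 had 3 expected counts in replicate 1 and 0 in replicate 2, where a count of 0 allows up to 3 counts, or 0.0905 CPM of mouse gene counts.

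Epha7 was measured both as a full-length receptor and as a shorter protein-coding transcript, Epha7-202, of the kind known in mouse to lack the kinase domain. The reading frames of the GENCODE M21 transcripts share 599 codons and then part, and that of Epha7-202 ends after 610 codons where Epha7-201 runs to 998. The point of divergence is shown because it separates the full-length receptor from a form of the kind without a kinase domain: the last 30 shared bases are in lower case, and the capitals mark what follows, which in Epha7-202 is its 35 own bases up to and with the stop codon. Both are on GRCm38, plus strand, spliced across an intron, from chr4:28943349-28946253 for Epha7-202 and from chr4:28943349-28947562 for Epha7-201.
Epha7-202: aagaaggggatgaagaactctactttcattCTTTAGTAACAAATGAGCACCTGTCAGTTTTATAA
Epha7-201: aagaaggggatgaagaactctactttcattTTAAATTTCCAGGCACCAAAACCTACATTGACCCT
Epha7-202 was assigned 251 expected counts in replicate 1 and 344 in replicate 2, with posterior standard deviations of 32.2 and 36.7, and 8.82% and 11.3% of the gene's TPM. Epha7-201 was assigned 2337 and 2443 counts and 34.4% and 33.6% of the TPM. Epha7-202 was thus measured in both libraries at a level below that of Epha7-201. Other coding transcripts of the gene also took reads. Epha7-203 was assigned 262 and 441 counts and Epha7-204 158 and 140, with posterior standard deviations between 50.8 and 121 reads. In GENCODE M21 the coding length is 2982 nt for Epha7-203 and 1878 nt for Epha7-204, beside 2994 nt for Epha7-201 and 1830 nt for Epha7-202. Epha7-202 was thus not the only short coding transcript: Epha7-204 held 6.96% of the gene's TPM in replicate 1 and 5.75% in replicate 2. The end of its reading frame was not examined.

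The EphB receptors and the ephrin-B ligands were detected without exception, 5 and 3 genes. Ephb4, the venous receptor of ephrin-B2, had 54.0 TPM in replicate 1 and 63.0 in replicate 2, which was 57.3% and 58.4% of the EphB sum. Ephb3 had 23.6 and 26.4 TPM. Ephb6, whose kinase domain is inactive, had 9.00 and 10.5 TPM, Ephb2 had 6.16 and 6.80 TPM, and Ephb1 had 1.48 and 1.27 TPM. No ranges overlapped within this role. Of the ligands, Efnb1, which lies on the X chromosome, had 36.1 TPM in replicate 1 and 39.4 in replicate 2. Efnb2, known as the arterial partner of Ephb4, had 26.0 and 29.9 TPM, and Efnb3 had 2.60 and 2.26 TPM. The remaining ephrin-B was thus far below the others in both libraries.

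The ephrin-B ligands end in a short tail that binds PDZ domain proteins, and the 3 genes are set apart from the ephrin-A ligands by this intracellular part. The last coding bases are shown to let the tails be compared, from the GENCODE M21 transcripts on GRCm38, with the stop codon at the end and the last 4 codons before it in capitals. The positions are chrX:99147480-99147527 on the plus strand for Efnb1-201, chr8:8620588-8620635 on the minus strand for Efnb2-201 and chr11:69555860-69555907 on the minus strand for Efnb3-201.
Efnb1-201: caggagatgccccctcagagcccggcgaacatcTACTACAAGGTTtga
Efnb2-201: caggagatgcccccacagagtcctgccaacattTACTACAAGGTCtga
Efnb3-201: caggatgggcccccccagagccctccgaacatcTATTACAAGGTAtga
Of the 45 bases before the stop codon, Efnb1 and Efnb2 share 39, Efnb1 and Efnb3 share 37, and Efnb2 and Efnb3 share 35. In the last 12 bases the 3 pairs share 11, 10 and 10. Each of these transcripts carried at least 97.7% of its gene's TPM in both libraries, so nearly all measured ephrin-B RNA belonged to a form with this tail.

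Set side by side, ligand and receptor sums on the TPM scale were within 1.51-fold of each other in 4 of the 5 systems and far apart in 1. Summed over the netrins, ligand TPM was 2.84 in replicate 1 and 3.39 in replicate 2, while Unc5 receptors summed to 34.6 and 38.3 TPM, 12.2 and 11.3 times as much. Slits summed to 63.7 and 74.2 TPM and Robo receptors to 69.5 and 81.0 TPM. Semaphorins summed to 190.2 and 200.6 TPM and plexins to 203.7 and 230.2 TPM. Ephrin-A ligands summed to 108 TPM in both libraries and EphA receptors to 118 and 125 TPM. Ephrin-B ligands summed to 64.7 and 71.5 TPM and EphB receptors to 94.2 and 108 TPM, 1.46 and 1.51 times as much. The receptor sum was the higher one in every system and library on the TPM scale. A second length scale was chosen after seeing the data and is here called coding-length TPM. It sets each gene's count over the length of its whole longest coding transcript, untranslated parts included, without rescaling to a common sum. On this scale the order turned for 2 systems. Semaphorins came to 161 and 169 coding-length TPM and plexins to 145 and 168, and ephrin-A ligands came to 102 and 103 coding-length TPM and EphA receptors to 92.0 and 99.3. The netrin and Unc5 ratio on that scale was 12.7 in replicate 1 and 11.6 in replicate 2. With the TPM of coding transcripts only, Slits came to 34.2 and 36.9 TPM and Robo receptors to 55.7 and 66.8 TPM, so that Robo receptors were 1.63 and 1.81 times as high. There the Unc5 sum was 10.3 and 8.83 times the netrin sum, and plexins and EphA receptors were again below their ligands.

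**Figure D2:**
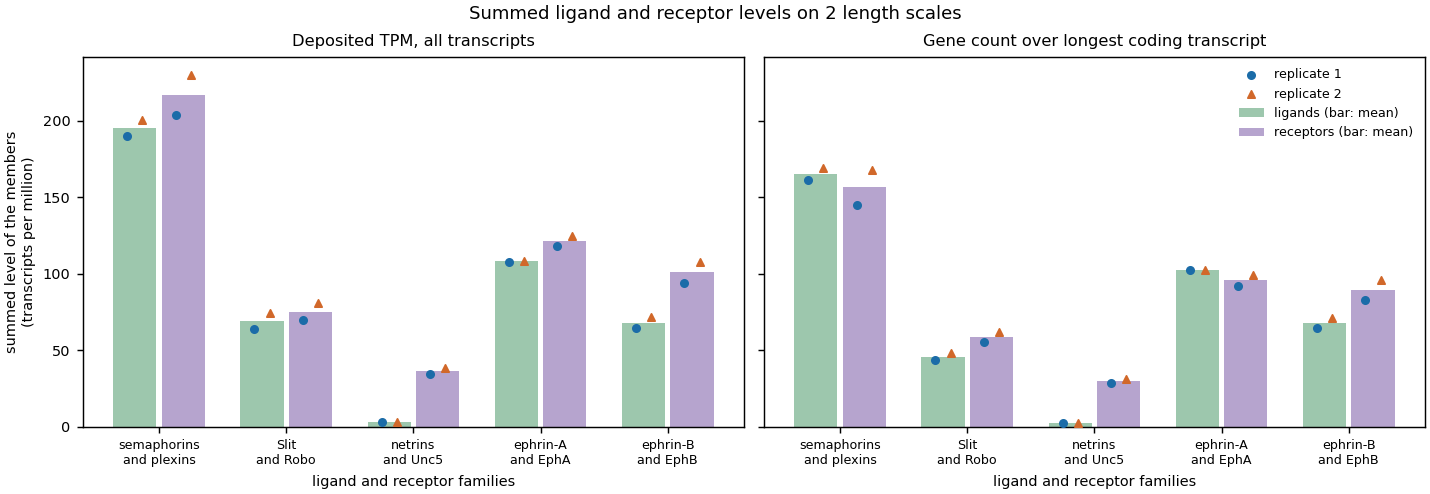
Summed level of ligands (green bars) and receptors (purple bars) in 5 systems, in deposited TPM (left) and in coding-length TPM (right); bars are means of the 2 libraries, circles replicate 1 and triangles replicate 2. Netrins stand far below Unc5 receptors on both scales, while semaphorins and plexins, and ephrin-A and EphA, change their order between the scales.

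Some members stood higher on the deposited scale than on coding-length TPM. Of the 53 detected members, 7 had a TPM over 1.5 times their coding-length TPM, beside 16.9% of all detected protein-coding genes: Ephb2, Plxnb2, Robo2, Sema6a, Epha7, Plxna3 and Slit2, with ratios from 1.52 to 2.19. The median ratio was 1.10 over the detected members and 1.06 over all detected protein-coding genes. The longest coding transcript can be a minor one. For Ephb2, with the ratio of 2.19, it was Ephb2-202 of 10902 nt, which held 14.96% of the gene's TPM in replicate 1 and 12.75% in replicate 2. Plxnb2 stayed highest on this scale, at a mean of 61.0 coding-length TPM, with Ephb4 next at 57.8. It did not on a further scale, also chosen after seeing the data, which adds up the TPM of coding transcripts only. There Plxnb2 had 49.7 TPM in replicate 1 and 58.3 in replicate 2, Ephb4 had 53.9 and 62.9, and Efna1 had 55.3 and 55.1. The top rank of Plxnb2 thus depends on its non-coding transcripts being counted. Slit3 and Slit2 also changed order on coding transcripts, with 17.3 and 18.5 TPM for Slit3 and 16.9 and 18.2 for Slit2, and their ranges overlapped. In coding-length TPM Robo2 at 18.3 was below Robo1 at 23.8, and Epha7 at 28.5 was below Epha3 at 40.8. On coding transcripts only, Robo2 and Epha7 again had the lower means, at 20.9 and 26.3 TPM, beside 23.8 TPM for Robo1, whose range overlapped with that of Robo2, and 40.8 TPM for Epha3.

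**Figure D3:**
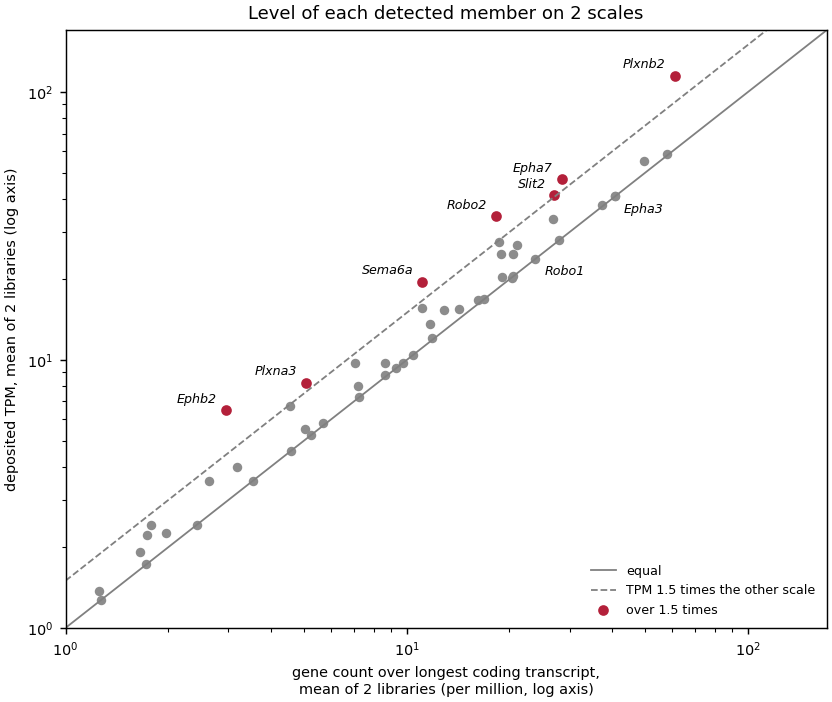
Mean level of each detected member on the deposited TPM scale (vertical) and in coding-length TPM, its count over the longest coding transcript (horizontal), both on log axes; the solid line marks equal values and the dashed line a TPM 1.5 times the other scale. The 7 named red members lie above the dashed line, and Epha3 and Robo1 lie on the line of equal values.

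For most members nearly all TPM lay on coding transcripts. A single transcript held 95% or more of the TPM in both libraries for 20 of the 53 detected members, among them Epha3, Robo1, Plxna1, Plxnd1 and Sema5a. The median share of TPM on protein-coding transcripts was 99.5% in replicate 1 and 98.7% in replicate 2, against 98.5% and 98.4% over all detected protein-coding genes. At the other end, the transcript with the largest share was not protein-coding in both libraries for 4 of the 53, beside 5.19% of protein-coding genes. In Plxnb2 it was the processed transcript Plxnb2-205, with 49.8% of the TPM in replicate 1 and 44.7% in replicate 2. In Epha5 it was the retained-intron transcript Epha5-207, with 37.3% and 53.3%. In Robo2 it was the retained-intron transcript Robo2-209, with 37.8% and 32.3%, and in Sema6a the retained-intron transcript Sema6a-209, with 25.3% and 22.6%. A retained-intron transcript keeps an intron and is not annotated as coding. Slit2, Plxnb2 and Epha5 had under 50% of their TPM on coding transcripts in both libraries, and for Slit2 the coding share was 43.8% and 41.5%.

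Some transcripts not typed as protein-coding held at least 20% of the gene's TPM in both libraries. Such transcripts were found in 12 of the 53 detected members, beside 12.5% of detected protein-coding genes. They spanned between 2.19% (Sema3c-205) and 99.0% (Sema3e-202) of the gene. Slit2-207 (6 exons), with 35.4% and 33.7% of the TPM, starts 16 nt from the gene's 5′ end, and Robo2-209 (2 exons) and Epha5-207 (3 exons) start at it. Plxnb2-205 is 841 nt long with 3 exons and ends at the 3′ end of the gene (chromosome 15 from 89155549 to 89156572). It was assigned 909 expected counts in replicate 1 and 891 in replicate 2, which is 11.4% and 9.68% of the gene's counts against 49.8% and 44.7% of its TPM, since TPM divides by the short length. The coding transcript Plxnb2-202 was assigned 6718 and 7175 counts. Slit3-204, 459 nt long, showed the same with 2.94% and 4.02% of the counts and 29.9% and 37.0% of the TPM.

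**Figure D4:**
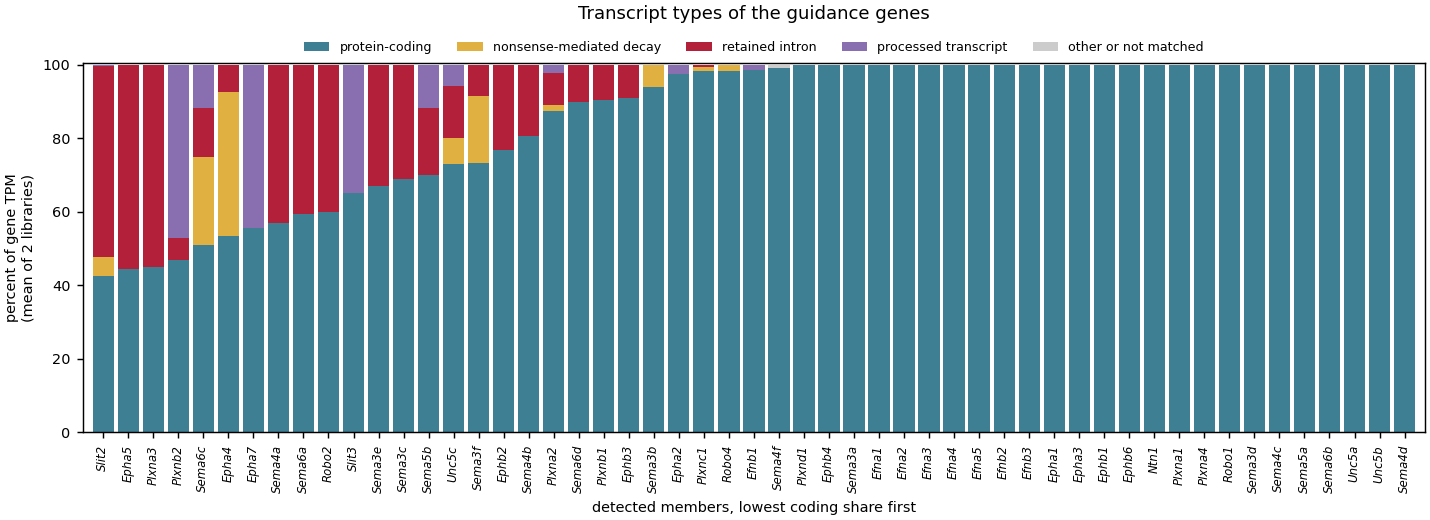
Percent of each detected member's TPM on transcripts of each annotated type (mean of the 2 libraries), members ordered from the lowest coding share. Slit2, Epha5, Plxna3 and Plxnb2 have the lowest coding shares, with retained introns (red) leading in the first 3 and a processed transcript (purple) in Plxnb2, while the right-hand members are coding throughout.

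The leading transcript was the same in both libraries for 49 of the 53 detected members, beside 93.6% of protein-coding genes. It differed for Ephb1, Sema3b, Sema4a and Sema6c, with means under 5 TPM. In Ephb1 the coding transcript Ephb1-201 had 53.8% of the TPM in replicate 1 and 37.1% in replicate 2, and Ephb1-202 had 34.9% and 42.7%. In Sema3b, Sema3b-202 had 49.7% and 38.2% and Sema3b-205 had 29.1% and 43.0%. In Sema4a, the retained-intron transcript Sema4a-211 had 47.7% and 22.7% and the coding Sema4a-201 had 38.7% and 61.7%. In Sema6c, the nonsense-mediated decay transcript Sema6c-212 had 26.2% and 19.1% and the coding Sema6c-201 had 23.5% and 32.7%. These shares rest on few reads: Ephb1-201 was assigned 81.3 and 48.1 counts, with posterior standard deviations of 19.7 and 16.5. Epha4 kept its leading transcript but not its split. Epha4-201 was assigned 1194 counts in replicate 1 and 643 in replicate 2 and the nonsense-mediated decay transcript Epha4-205 26.1 and 443, with posterior standard deviations between 224 and 314 reads, so the reads hardly separate these 2 forms.

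Between the libraries no tested guidance gene differed by 2-fold. Counts of each gene were compared with an exact two-sided binomial test, Benjamini-Hochberg adjusted over 14870 genes, and called at an adjusted p under 0.05 and a 2-fold ratio; this compares 2 libraries, not conditions. Of the 53 members tested, 0 were called higher in replicate 1, beside 0.78% of all genes, and 0 lower, beside 0.356%. The fold limit alone gives this result for any test, since the largest ratio between the libraries of a tested member was 1.32-fold, and edgeR's exact test with this limit also gave 0. At an unadjusted p under 0.05 of the binomial test 6 members (11.3%) were higher and 21 (39.6%) lower, beside 16.6% and 16.5% of all genes tested. The log2 ratio of replicate 1 over replicate 2 lay between -0.40 and 0.33, and 48 members were within 1.2-fold. Its median was -0.06 over the members and 0.00 over all genes tested, and 36 members (67.9%) were below 0 and 17 above, beside 49.6% of protein-coding genes below 0. The median size of the log2 ratio, whatever its sign, was 0.11 over the members and 0.09 over the protein-coding genes tested. Unc5d was too low to be tested, and its 112 counts in replicate 1 and 194 in replicate 2 lay further apart, with a 95% interval of the log2 ratio from -1.08 to -0.39. Slit1, also too low to be tested, had 7 and 22 counts, with an interval from -3.06 to -0.31.

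Without the fold limit, 4 of the 53 members tested were higher in replicate 1, beside 11.5% of all genes, and 16 of the 53 lower, beside 11%. The binomial p-values and intervals here and in the next paragraph cover counting error only, not variation between libraries. Of the 4 higher members 3 were class 3 semaphorins. Sema3c had 2686 expected counts in replicate 1 and 2387 in replicate 2, a log2 ratio of 0.23 (95% interval 0.15 to 0.31, adjusted p = 3.7e-07, exact binomial test). Sema3d had 1484 and 1314 counts (log2 ratio 0.24) and Sema3e 2220 and 2061 (0.17), while the gene between them, Sema3a, was among the lower ones with 3282 and 3700 counts (-0.11). The fourth was Epha4, with 1620 and 1465 counts (0.21). So the class 3 semaphorins did not move one way between the libraries relative to the median gene. Spike-in scaling lowers the ratio of every gene alike, by 0.34 at the median, and puts all 53 members below 0.

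Among the 16 lower members, Sema3f had 800 expected counts in replicate 1 and 1101 in replicate 2, a log2 ratio of -0.40 (95% interval -0.53 to -0.27, adjusted p = 9.9e-08, exact binomial test). Sema6c reached the same ratio on fewer counts, 194 and 268 (interval -0.68 to -0.13). Plxnd1 had 5590 and 6804 counts (log2 ratio -0.22), Plxna1 3654 and 4443 (-0.22), Plxnb2 7948 and 9201 (-0.15) and Ephb4 5047 and 5913 (-0.17). The other lower members, Slit2, Robo2, Robo4, Sema3a, Efna2, Efnb2, Epha1, Epha3, Epha7 and Ephb3, had log2 ratios between -0.32 and -0.08. In Plxna3 the libraries stood further apart in TPM than in counts: it had 6.85 and 9.61 TPM and 720 and 827 counts, and its log2 count ratio of -0.14 did not pass the test (adjusted p = 0.18, exact binomial test).

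Markers of other tissues moved between the same libraries. Besides the heart muscle list (Nppa was at 0 in replicate 2), 5 skeletal muscle markers summed to 19.0 TPM in replicate 1 and 3.57 in replicate 2 with 3 called higher and Myod1 and Myog at 0 in replicate 1. The 4 leukocyte markers summed to 51.7 and 22.3 TPM, with Cd3e at 0 in both. Most of that gap lay on S100a8 (32.75 and 5.79 TPM), the 1 called higher at 2-fold. Csf1r had 16.5 and 14.2 TPM and Ptprc 2.41 and 2.31 TPM, and with the adjusted p alone 3 of the list were higher. The 3 liver markers summed to 2.98 and 6.60 TPM with 2 called lower. The 8 markers of neurons and neural crest summed to 18.1 and 14.2 TPM, with 6 detected and 0 called at 2-fold. With the adjusted p alone, Stmn2 (5.94 and 3.74 TPM) and Tubb3 (2.33 and 1.34 TPM) of that list were higher in replicate 1. Of the 4 mesothelial markers, Msln (2.98 and 1.24 TPM) was called higher at 2-fold, and 3 were higher with the adjusted p alone. The part of these tissues, and of sex, in the levels and ratios of the guidance genes was not tested.

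**Figure D5:**
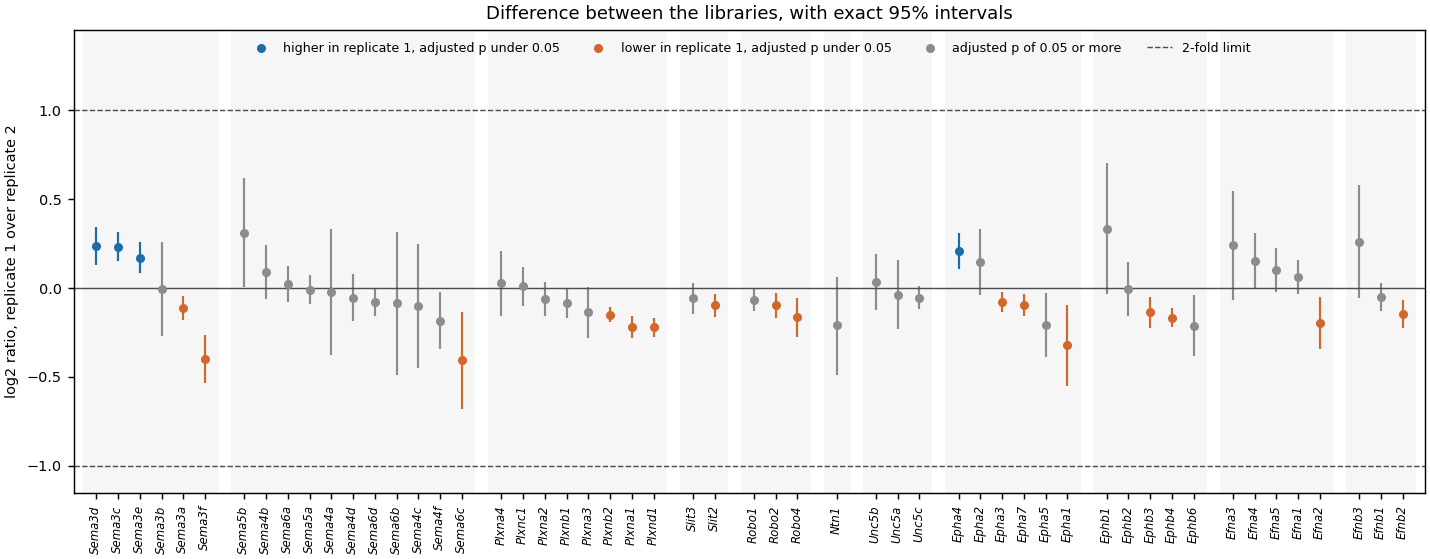
Log2 ratio of replicate 1 over replicate 2 for the 53 tested members, by role, with exact 95% intervals that cover counting error only; blue and orange mark an adjusted p under 0.05 (higher and lower in replicate 1), and dashed lines the 2-fold limit. All points lie between -0.40 and 0.33, inside the limit, and the interval is widest for members with few counts such as Sema6b and Ephb1.

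The genes that work with these ligands and receptors were mostly present. Of 58 co-receptors, other ligands, intracellular partners and proteases, 51 were detected, beside 58.8% of all protein-coding genes. Of the 52 tested, 0 were called with the 2-fold limit, beside 0.78% of all genes called higher and 0.356% lower. Among 9 co-receptors and other receptors 7 were detected. Itgb1, the integrin beta-1 chain to which Sema7a binds, had 326 TPM in replicate 1 and 318 in replicate 2, and the neuropilin Nrp1 had 48.2 and 48.7 TPM. Nrp2 had 7.69 and 8.64 TPM. The netrin receptors were split: neogenin (Neo1) had 34.2 and 34.7 TPM, while Dcc had 0.19 and 0.20 TPM, from 20 counts in each library. Dscam was at 0.00 and 0.01 TPM. By TPM, netrin receptor RNA in these lungs was therefore mainly that of Neo1 and Unc5c.

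Of 8 other guidance ligands 6 were detected, led by the neogenin ligand Rgmb (14.1 TPM in replicate 1 and 14.2 in replicate 2) and the Unc5 ligand Flrt2 (12.1 and 11.3 TPM). Both stood above Ntn1, while the FLRT family member Flrt1 (1.56 and 1.16 TPM) and Draxin (0.01 TPM in both libraries) stood below it. Of 34 intracellular partners 32 were detected, led by Sdcbp, the PDZ domain protein syntenin-1 (273 and 265 TPM), and Dpysl2, the semaphorin response mediator CRMP-2 (218 and 213 TPM). Of 7 proteases that cut ligands or receptors 6 were detected, led by Adam10, the sheddase of ephrins (67.5 and 64.7 TPM). With the adjusted p alone, 12 of the 52 were higher and 5 lower in replicate 1, beside the same 11.5% and 11% of all genes.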

How the data were processed

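RNA of 2 lung libraries was quantified by the authors, who deposited a gene and a transcript table for each. Per the file headers, each holds the expected count (estimated reads, not whole), TPM (scaled over all features, spike-ins included), the percent of a gene's TPM on each transcript and a posterior standard deviation of the count, deposited as a non-negative signal in reads. The deposited read-me files name mm10, GENCODE M4 and transcriptome alignments. The aligner, the quantification program and whether strand was used: not given in the sources used here. Reads of overlapping genes on opposite strands may therefore be mixed.

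Symbols, types, coordinates (1-based) and sequences came from GENCODE M21 on GRCm38. Of 323 member transcripts 321 matched and 279 had the same length in both releases. Members and gene lists were chosen with earlier results of these data known. All members are reported, and those named in full are at least the 2 highest per role and any with another or a non-coding leading transcript. Of the partner genes, 1 enters the counts but is not reported here on its own.

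Detected means TPM of 1 or more in both libraries. For ratios, expected counts were rounded and scaled by the TMM method of edgeR 4.0.16 in R 4.3.3 on 14870 genes whose mean TPM was at least 1, 0.5 was added to each count, and an exact two-sided binomial test (scipy 1.17.1) was adjusted by Benjamini-Hochberg. With 1 library against 1, edgeR's quasi-likelihood fit had no residual degrees of freedom. Alternatives used DESeq2 1.42.0 size factors, other totals, filters and fold limits, edgeR's exact test with a common dispersion (biological coefficient of variation 9.58%), posterior means and other transcript scales. On simulated counts for this comparison (14870 genes) the test called 0 of 14670 unchanged genes. It called 48 of 50 changed 2.5-fold, 50 of 50 changed 4-fold and 0 of 50 changed 1.5-fold, which lies under the fold limit. Changed genes were drawn from those with at least 50 counts over both libraries. The simulated counts held counting error only, without variation between libraries, so they cannot show how often unchanged genes are called in real libraries. Intervals (95%), p-values of the binomial test and floors (3 counts for a count of 0) cover counting error only.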

Additional observations from a re-analysis of the deposited data

How the results depend on the processing

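No paired analysis was possible because the libraries form 1 group. The number of detected members was 57 at a TPM minimum of 0.5, 48 at 2 and 41 at 5, 53 on posterior means, 54 after rescaling to protein-coding genes, and between 53 and 54 when 1 library was left out. It was 53 over the longest coding transcript and 53 on coding transcripts alone, settings chosen after seeing the data. Calls between the libraries were 0 in each direction under DESeq2 size factors, gene or spike-in totals, no filter, a 1.5-fold limit and edgeR's exact test. Under these settings the fold limit alone decides for the 53 tested members. With no fold limit, 4 members were higher and 16 lower in replicate 1. Of all 14870 genes, 116 were called higher and 53 lower with DESeq2 size factors, and 114 and 57 with gene totals. Spike-in totals gave 87 and 203, the 1.5-fold limit 253 and 145, and edgeR's exact test 84 and 22. With no filter it was 360 and 178 of 24179 genes, and with no fold limit 1705 and 1642 of 14870. Scaling by spike-ins moved the median log2 ratio of all genes to -0.34 and of the members to -0.40, a shift common to every gene. The leading transcript was shared by 46 of the 53 detected members on posterior means, by 51 on coding transcripts alone, and by 41 of the 41 members at 5 TPM or more. Summed TPM per role moved by more than the spread of the libraries in 3 of 11 roles on posterior means, 11 of 11 after rescaling, 10 of 11 over the longest coding transcript and 7 of 11 on coding transcripts alone. A ratio of 2 libraries cannot be formed with 1 left out. Depth limits what can be said of members with few reads, such as Epha6, Epha10 and Slit1.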

Other observations

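Genes whose symbols come close to the rule but fall outside it were also measured. Of the 6 Slitrk genes, membrane proteins with a leucine-rich repeat region like that of Slits, Slitrk6 was detected, with 15.0 TPM in replicate 1 and 17.0 in replicate 2. The other 5 Slitrk genes were under 1 TPM in both libraries. Unc5cl, a protein related to Unc5 receptors in its intracellular part, had 1.10 and 1.21 TPM. The netrin-G genes, which encode lipid-anchored relatives of netrins, stood at 3.06 and 2.56 TPM for Ntng1 and 0.37 and 0.80 TPM for Ntng2. Of the 3 genes annotated antisense to Plxna4, Plxna4os1 had 13 and 12 expected counts, Plxna4os2 had 11 and 7, and Plxna4os3 had 0 in both libraries.

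Exons of 16 members overlap those of another gene in the newer annotation, 14 of them on the opposite strand. For most of these the member had many more reads than its partner: Plxna1 had 3654 expected counts in replicate 1 and 4443 in replicate 2 where Gm26811 had 35.3 and 31.4. Sema4c, with 132 and 148 counts, was closer to its partner D430040D24Rik, with 43.0 and 26.2 counts, and so was Efna3, with 190 and 168 counts, to Gm15998, with 33.4 and 51.0. Epha1, with 281 and 367 counts, was far below its partner Zyx, with 7957 and 8063. Ntn5 had 7.8 and 9 counts and its partner Sec1 3.2 and 0, with exons that overlap by up to 407 nt.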
